A study of Mus musculus with 6 samples.

Results

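Semaphorins, plexins and neuropilins were measured by RNA-seq in cells sorted from the adult mouse olfactory bulb. The members were chosen by gene symbol, as every Sema3 to Sema7, Plxna to Plxnd and Nrp1 or Nrp2 gene listed, which gave 31 of the 24421 genes in each library: 20 semaphorins, 9 plexins and 2 neuropilins. The 6 libraries came from 3 control and 3 Sox9 KO mice, all males, with 1 library per mouse. The KO mice were Sox9fl/fl, and the control mice are named C57BL/6J in the labels and Sox9+/+ in the study's methods. The strain is given as C57BL/6 for all 6 libraries. Mice of both groups carried AAV-GFAP-iCre-P2a-TurboRFP, a virus injected into the olfactory bulb. Its GFAP promoter, active in astrocytes, drives the recombinase Cre and the red fluorescent protein TurboRFP, so Cre was present in the controls too. Fluorescent cells were sorted by FACS 4 weeks after the injection. The comparison asks how expression in cells sorted as adult olfactory bulb astrocytes differs when the transcription factor Sox9 is deleted. Markers of astrocytes and of other cell types in these libraries are given below.

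Semaphorins are guidance ligands that steer growing axons and migrating cells and that also act on synapses, vessels and immune cells. Those of class 3 are secreted, those of classes 4, 5 and 6 span the membrane, and Sema7a is held at the cell surface by a lipid anchor. Plexins are their receptors and carry an intracellular domain that turns off small GTPases of the Ras and Rap family. Neuropilins have no signalling domain of that kind and bind most class 3 semaphorins together with a plexin A, and they also bind vascular endothelial growth factors. In the olfactory system these genes are known for sorting the axons of sensory neurons on their way to the glomeruli.

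Promoter stretches are shown for the member with the highest rise among the membrane semaphorins (Sema4c), that with the largest fall among the plexins (Plxnb1) and that with the highest rise among the neuropilins (Nrp2), so that the sequence can be seen beside the values given later. The bases are from RefSeq on GRCm38.p6, lie before a RefSeq start of the gene and are read 5′ to 3′ on its strand, and bases inside an exon of the same gene in GENCODE vM21 were left out. Sema3c and Sema5b, the largest falls among the secreted and the membrane semaphorins, kept under 100 bases and are not shown. Capitals mark GGGCGG or its reverse complement CCGCCC, the letters of a GC box, in the first 3 genes, and AACAAT or ACAATG or their reverse complements, letters that SOX proteins are known to bind, in Sema4d. Sema4d was chosen after its sequence was seen, and the start used for it lies inside the gene as GENCODE vM21 lists it. The stretches are chr1:36558382-36558631, minus strand, for Sema4c, chr9:109095186-109095388, plus strand, for Plxnb1, chr1:62703067-62703284, plus strand, for Nrp2, and chr13:51748920-51749060, minus strand, for 1 of the 3 listed starts of Sema4d.
Sema4c: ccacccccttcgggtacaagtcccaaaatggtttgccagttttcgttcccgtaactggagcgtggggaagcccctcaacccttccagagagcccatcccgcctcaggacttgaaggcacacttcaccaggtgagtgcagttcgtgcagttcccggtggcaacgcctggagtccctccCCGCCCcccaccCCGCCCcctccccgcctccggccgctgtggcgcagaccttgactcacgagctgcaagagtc
Plxnb1: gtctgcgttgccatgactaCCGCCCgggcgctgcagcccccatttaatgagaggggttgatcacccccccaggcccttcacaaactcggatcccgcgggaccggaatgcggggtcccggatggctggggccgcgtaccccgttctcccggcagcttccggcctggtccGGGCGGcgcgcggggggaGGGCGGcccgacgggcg
Nrp2: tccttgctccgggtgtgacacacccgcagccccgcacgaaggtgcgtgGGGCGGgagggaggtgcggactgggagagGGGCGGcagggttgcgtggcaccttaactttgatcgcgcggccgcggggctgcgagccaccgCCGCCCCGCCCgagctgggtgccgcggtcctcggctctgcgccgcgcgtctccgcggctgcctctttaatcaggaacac
Sema4d: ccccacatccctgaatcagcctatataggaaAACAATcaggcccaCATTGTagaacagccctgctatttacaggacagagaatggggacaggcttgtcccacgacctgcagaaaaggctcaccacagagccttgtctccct

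In the 250 bases before the start, AACAAT or ATTGTT was found in 2 of 37 member promoters, those of Plxnb3 and Sema4d, against 9.42% of 32851 promoters in all. ACAATG or CATTGT was found in 5 of 37 (13.5%), against 10.7%, and its matches can share bases with those of the first motif. The GC box letters GGGCGG or CCGCCC were found in 27 of 37 (73.0%), against 32.7% of all promoters, and the member promoters had a median GC content of 64% against 52.4%. The 37 promoters belong to 26 members. Sema3b, Sema3f, Plxna1 and Plxna4 were not among the matched entries, and Sema6a was not used here.

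Sox9 itself was at 5185, 6562 and 4921 normalized counts in the control libraries and at 52.6, 64.3 and 57.7 in the KO libraries, 95.4-fold lower on the means. A normalized count is a read count divided by 1 size factor per library. Between 18242129 and 86906527 reads fell on genes, 1 read was worth 0.395 to 1.58 normalized counts, and the ribosomal precursor Rn45s took 14.2 to 22.4% of the reads. The sorted cells are labelled astrocytes, and the 10 astrocyte markers listed (such as Aqp4 and Slc1a3) summed to 489926 to 549280 normalized counts in the controls and to 34203 to 44271 in the KO libraries, with all 10 lower and a median log2 fold change of -3.84. All 10 microglia and macrophage markers (such as Cx3cr1 and C1qa) were higher in KO, with a median of 1.96, and summed to 159820 to 183216 in the controls and to 568073 to 670784 in the KO libraries. So the marker sum of microglia and macrophages lay below that of astrocytes in every control library and above it in every KO library. In such bulk samples, a change in the share of cells of a type and a change in the RNA of its genes per cell cannot be told apart.

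All 31 members passed the filter of a mean of at least 1 normalized count and were tested with limma. A gene is called here at an adjusted p of 0.05 (Benjamini-Hochberg over 18413 genes) and a 1.5-fold difference. In the KO libraries 4 members were called higher, Sema4c, Sema4d, Nrp1 and Nrp2, which is 12.9% of the members against 22.2% of all genes tested. Another 18 were called lower, 58.1% against 28.8% of all genes tested, and 9 were not called. The median log2 fold change was -1.27 over the members and -0.07 over all genes tested. Every KO library was above every control library for 5 members (16.1%, against 32.4% of all genes), and below every control library for 19 (61.3%, against 34.7%). With 3 against 3 mice, the smallest two-sided p of an exact permutation test of 1 gene is 0.1. Of the called members, the 4 higher ones were called higher under every scaling, and 13 of the 18 lower ones remained called after quantile normalization.

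**Figure D1:**
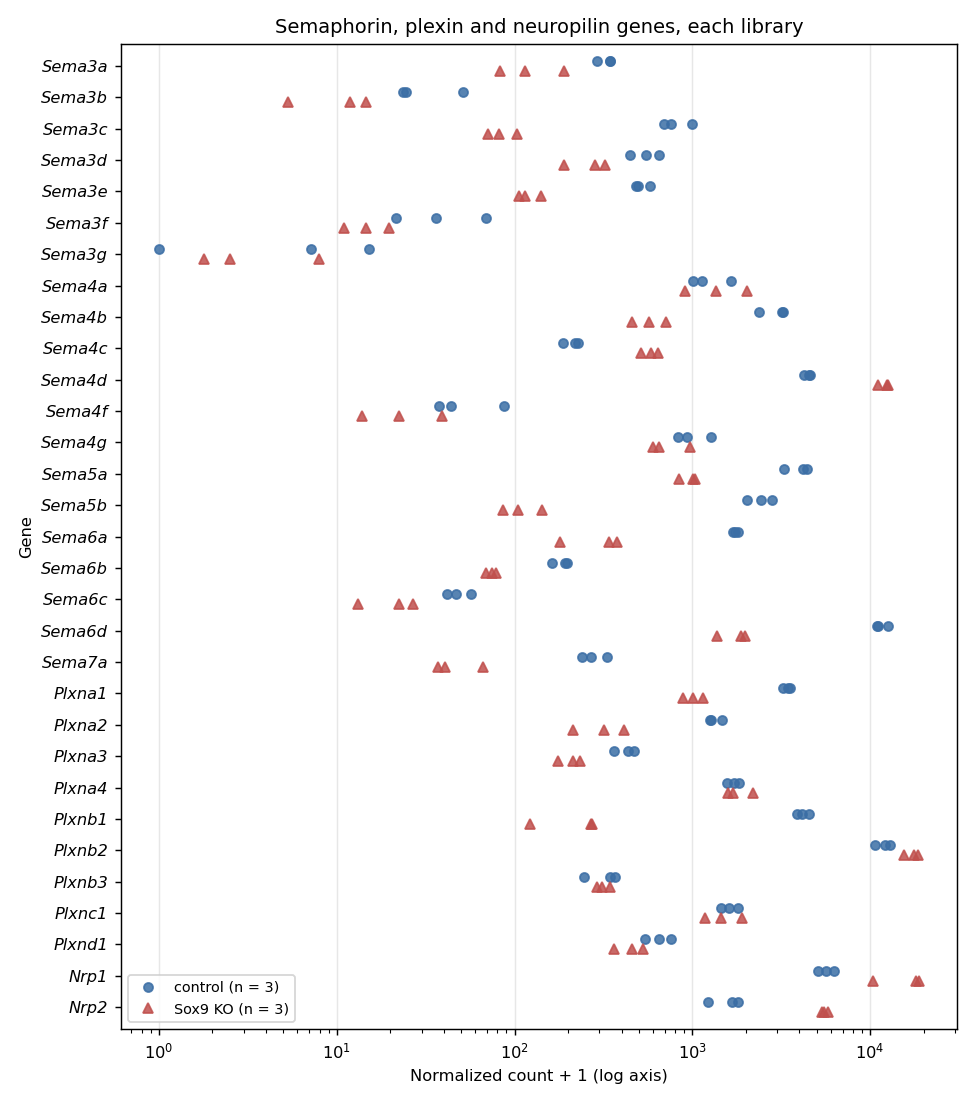
Normalized count plus 1 (log axis) of each of the 31 genes in each library, with circles for the 3 control and triangles for the 3 Sox9 KO libraries. For Sema6d the KO libraries lie between 1380 and 1982 and the controls between 10966 and 12566, and for Nrp2 all KO libraries lie above all controls.

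**Figure D2:**
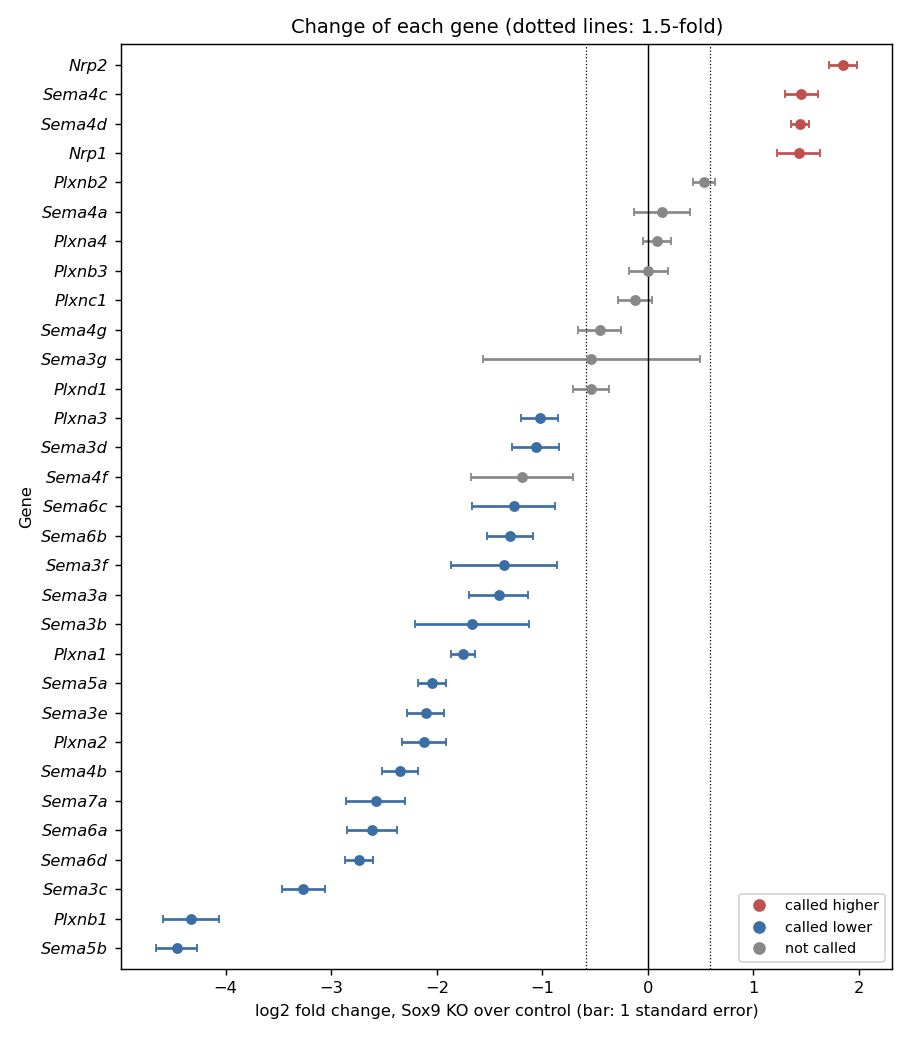
Log2 fold change of each gene, Sox9 KO over control, ordered by size, with bars of 1 standard error and dotted lines at 1.5-fold. The 4 genes called higher lie between 1.43 and 1.85, and the 18 called lower between -1.03 and -4.47.

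Of the 7 secreted class 3 semaphorins, 6 were called lower (85.7%, against 28.8% of all genes tested) and none higher (against 22.2%). Sema3c, known for guiding axons and for the outflow tract of the heart, was at 688, 763 and 993 normalized counts in the controls and at 80.4, 69.5 and 102 in KO, a log2 fold change of -3.26 (SE 0.20, adjusted p = 3.43e-07). The lowest control was thus well above the highest KO library. Sema3e, which binds Plxnd1 without a neuropilin, was at 492, 478 and 580 in the controls and 114, 140 and 105 in KO, a change of -2.11 (SE 0.18, adjusted p = 3.01e-06). Sema3a, a ligand of Nrp1 that repels axons, was at 342, 290 and 342 in the controls and 81.4, 114 and 190 in KO, a change of -1.41 (SE 0.28, adjusted p = 0.00139). Neither gene had overlapping groups. Sema3d was at 443, 647 and 549 in the controls and at 188, 322 and 283 in KO, a change of -1.06 (SE 0.22, adjusted p = 0.00176). The 2 weakest calls of this class rested on few reads. Across the controls Sema3b had 16, 33 and 32 reads, against 11, 11 and 9 (-1.66, SE 0.54, adjusted p = 0.0214), and Sema3f, a ligand of Nrp2, had 24, 30 and 43 against 10, 47 and 9 (-1.37, SE 0.50, adjusted p = 0.0362). These reads are not scaled, and the normalized counts of Sema3f, 20.6 to 67.8 in the controls and 9.93 to 18.6 in KO, did not overlap. The Sema3b call was lost without control 3 (adjusted p = 0.0934) or KO 2 (0.0678), and the Sema3f call without control 1 (0.0831), control 3 (0.141), KO 1 (0.105) or KO 3 (0.0892). Sema3g was near the limit of detection, at 0, 9 and 9 control reads against 7, 2 and 1 KO reads (-0.54, SE 1.03, adjusted p = 0.671). A count of 0 in control 1 allows up to 3 reads, or 4.38 normalized counts, which covers counting error only.

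The class 4 semaphorins, which span the membrane and are also known from immune cells, went in both directions. Of these 6, 2 were called higher (33.3%, against 22.2% of all genes tested) and 1 lower (16.7%, against 28.8%). Sema4d, the ligand of Plxnb1 and of Cd72, was at 4504, 4243 and 4593 normalized counts in the controls and at 12663, 12488 and 11093 in KO, 2.72-fold higher on the means (log2 fold change 1.44, SE 0.09, adjusted p = 2.87e-07). The KO libraries lay close together and far above the controls. Sema4c, a ligand of Plxnb2, was at 186, 227 and 219 in the controls and 582, 639 and 513 in KO, a change of 1.45 (SE 0.16, adjusted p = 1.66e-05). Its exons share 334 bases with D430040D24Rik on the opposite strand, and no source used here says whether strand was used in counting, so reads of such pairs cannot be told apart. Sema4b went the other way, at 3218, 3186 and 2375 in the controls and 709, 567 and 459 in KO, a change of -2.35 (SE 0.17, adjusted p = 1.01e-06). The remaining 3 genes were not called. Sema4a was at 1650, 1014 and 1135 against 2026, 1360 and 904, with groups that overlapped (0.13, SE 0.27), and its sign turned with equal library totals (-0.11). Sema4g was at 1266, 829 and 935 against 646, 975 and 603 (-0.46, SE 0.20, adjusted p = 0.0761), and passed without KO 2 (-0.67, adjusted p = 0.0119). Sema4f was lower on the means (55.3 against 24.0, -1.19, SE 0.49, adjusted p = 0.0544), and passed without KO 2 (-1.57, adjusted p = 0.0228).

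All 7 semaphorins of classes 5, 6 and 7 were called lower, against 28.8% of all genes tested. Sema5b had the lowest log2 fold change of the family. It was at 2793, 2442 and 2019 normalized counts in the controls and 85.4, 141 and 103 in KO, 22.0-fold lower on the means (-4.47, SE 0.20, adjusted p = 3.90e-08). Sema5a, its closest relative, was at 4220, 3281 and 4410 against 841, 1032 and 1003, a change of -2.04 (SE 0.13, adjusted p = 4.21e-07). The groups of both genes lay far apart, and for Sema5b the lowest control stood at 2019 against 141 in the highest KO library. Among class 6, Sema6d, a ligand of Plxna1, was the most abundant by normalized counts, at 12566, 10966 and 11090 in the controls and 1380, 1880 and 1982 in KO (-2.74, SE 0.13, adjusted p = 6.91e-08). Sema6a, a ligand of Plxna2 and Plxna4, was at 1732, 1807 and 1696 against 180, 339 and 378 (-2.61, SE 0.24, adjusted p = 4.71e-06). No KO library reached a control library in either gene. Sema6b was at 191, 162 and 195 against 73.5, 78.2 and 68.4 (-1.31, SE 0.22, adjusted p = 0.000397). Sema6c, at 40.9, 55.7 and 45.7 against 25.8, 21.3 and 12.2 (-1.27, adjusted p = 0.0176), was not called without control 2 (adjusted p = 0.0692). Sema7a, which signals through Plxnc1 and beta1 integrin, was at 240, 331 and 268 against 65.5, 36.3 and 39.5 (-2.58, SE 0.28, adjusted p = 1.81e-05).

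Levels of different genes were compared per length, as normalized counts per kb of the union of all GENCODE vM21 exons of a gene. On that scale class 4 made up 38.7 to 41.1% of the semaphorin sum in the controls and 82.1 to 88.4% in KO. Class 6 went from 35.6 to 35.9% in the controls to 6.54 to 10.9% in KO, class 5 from 14.3 to 15.4% to 2.14 to 2.98%, and class 3 from 5.89 to 8.75% to 2.14 to 3.41%. Each class had control and KO ranges that did not overlap. A pair of genes carried most of this: Sema4d went from 14.6 to 16.5% of the sum to 61.6 to 63.2%, and Sema6d from 28.5 to 29.5% to 4.91 to 8.21%. A share does not depend on the size factor of a library, but the shares of 1 library depend on each other. The summed level of all semaphorins per kb was 3621 to 4028 in the controls and 2287 to 2661 in KO.

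**Figure D3:**
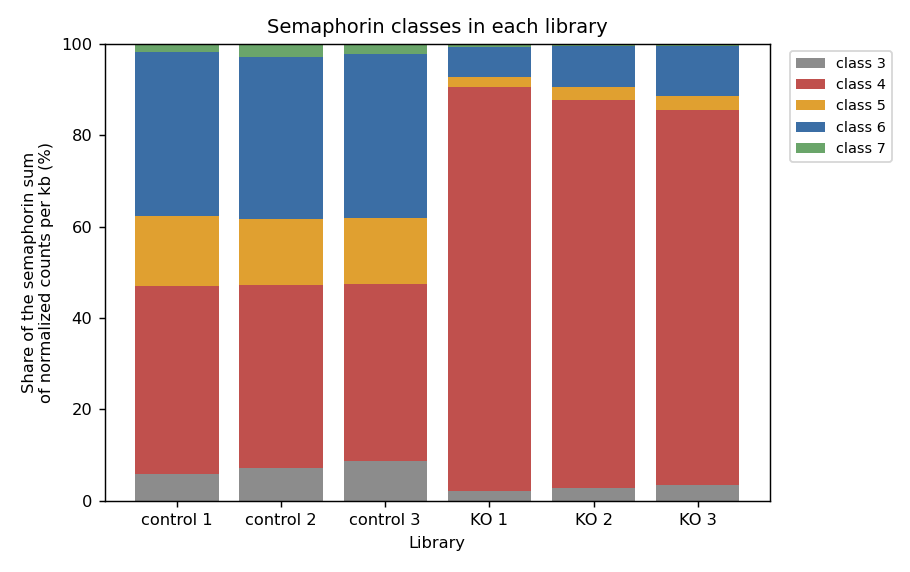
Share (%) of each semaphorin class in the summed normalized counts per kb of the 20 semaphorins, in each of the 6 libraries (1 bar per library). Class 4 takes 38.7 to 41.1% in the 3 controls and 82.1 to 88.4% in the 3 KO libraries.

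Of the 9 plexins, 4 were called lower (44.4%, against 28.8% of all genes tested) and none higher (against 22.2%). Plxnb1, the receptor of Sema4d, was at 4513, 4140 and 3882 normalized counts in the controls and 121, 268 and 272 in KO, 18.9-fold lower on the means (-4.33, SE 0.26, adjusted p = 2.74e-07). Plxnb1 shares 257 exonic bases with Gm7628 on the opposite strand. Its ligand Sema4d was higher in the same KO libraries, as given above. Plxna1, Plxna2 and Plxna3, which pair with neuropilins or with class 6 semaphorins, were all lower. Plxna1 was at 3550, 3434 and 3223 against 1009, 1147 and 884 (-1.75, SE 0.11, adjusted p = 3.76e-07). It shares 970 exonic bases with the antisense gene Gm26811. Plxna2 was at 1274, 1463 and 1250 against 212, 318 and 413 (-2.12, SE 0.21, adjusted p = 9.69e-06). Plxna3 was at 471, 363 and 432 against 175, 233 and 213 (-1.03, SE 0.18, adjusted p = 0.000498), and after quantile normalization it fell just short of the fold threshold (-0.58). Plxna4 was at 1841, 1726 and 1559 against 1694, 2193 and 1597, with overlapping groups (0.09, SE 0.13, adjusted p = 0.586), and it shares 110 exonic bases with the antisense gene Plxna4os3.

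The plexins B2, B3, C1 and D1 were not called. Plxnb2, a receptor of Sema4c, was at 12920, 12146 and 10709 in the controls and 17578, 18545 and 15503 in KO. Its KO libraries were all above the controls, yet the difference of 1.44-fold on the means was under the threshold (0.53, SE 0.11, adjusted p = 0.00139). It was called without control 1 (0.59) or KO 3 (0.60), and was at -0.04 after quantile normalization. Plxnd1, the receptor of Sema3e, was at 652, 756 and 544 against 362, 524 and 457 (-0.54, SE 0.17, adjusted p = 0.0199), and was called without control 3 (-0.66, adjusted p = 0.0202) or KO 2 (-0.66, adjusted p = 0.0127). Plxnc1, the receptor of Sema7a, was at 1607, 1797 and 1455 against 1181, 1449 and 1913 (-0.12, SE 0.16, adjusted p = 0.546). Plxnb3 was at 244, 343 and 369 against 342, 311 and 292 (0.00, SE 0.18, adjusted p = 0.991). Control and KO libraries were intermixed for Plxnc1 and Plxnb3. The summed plexin level per kb was 2692 to 3120 in the controls and 2635 to 3054 in KO, ranges that overlapped. Within that sum, Plxnb2 took 51.5 to 53.6% in the controls and 76.2 to 81.3% in KO, and Plxnb1 took 14.3 to 15.1% and 0.451 to 1.08%.

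Both neuropilins were called higher, against 22.2% of all genes tested. Nrp2 had the highest log2 fold change of the family, at 1222, 1811 and 1663 normalized counts in the controls and 5822, 5495 and 5379 in KO (1.85, SE 0.14, adjusted p = 1.10e-06). Nrp1, a receptor for Sema3a and for Vegfa, was at 6255, 5681 and 5110 in the controls and 18070, 10319 and 18950 in KO (1.43, SE 0.20, adjusted p = 0.000125). KO 2 was well below the other two KO libraries for Nrp1 and still above every control, and for Nrp2 the 3 KO libraries were alike. The summed neuropilin level per kb went from 663 to 742 in the controls to 1519 to 2391 in KO. Thus the co-receptors were higher in libraries where Sema3a, Sema3c and Sema3e, and Plxna1, Plxna2 and Plxna3, were lower.

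By level per kb the highest 4 members in the controls were Plxnb2 (1545 on the mean), Sema6d (1093), Nrp1 (581) and Sema4d (579), and the means of Nrp1 and Sema4d differed by less than their spread. In KO the order by the means was Plxnb2 (2229), Nrp1 (1613), Sema4d (1573) and Nrp2 (470). The order of Nrp1 and Sema4d is not settled, since in KO 2 Sema4d (1626) was above Nrp1 (1055). Nrp2 moved from rank 13 to rank 4 of the 31 members and Sema4c from 25 to 9. Plxnb1 moved from rank 6 to 19, Sema5b from 8 to 22 and Sema6d from 2 to 7. These ranks are a description and were not tested.

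Ratios of 2 members within a library do not depend on the size factor. The 8 pairs were chosen after the values were seen, so they are a description with no test. The ratio of Plxnb2 to Plxnb1 per kb was 3.56, 3.65 and 3.43 in the controls and 180, 85.8 and 70.8 in KO. The ratio of Sema4d to Sema6d was 0.493, 0.532 and 0.569 in the controls, where Sema6d was the higher of the pair, and 12.6, 9.13 and 7.69 in KO, where Sema4d was. Within class 4, Sema4d to Sema4b went from 1.03, 0.979 and 1.42 to 13.1, 16.2 and 17.8, and Sema4c to Sema4b from 0.0709, 0.0876 and 0.113 to 1.01, 1.39 and 1.38. Relatives of the same class thus shifted against each other. Receptor pairs did too: Nrp1 to Plxna1 went from 1.63, 1.53 and 1.47 to 16.6, 8.33 and 19.8, and Nrp2 to Plxna2 from 1.39, 1.80 and 1.93 to 39.7, 25.0 and 18.9. Plxna4 to Plxna1 went from 0.333, 0.323 and 0.310 to 1.08, 1.23 and 1.16. Sema5a to Sema5b, both lower in KO, went from 0.573, 0.509 and 0.828 to 3.73, 2.77 and 3.68.

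**Figure D4:**
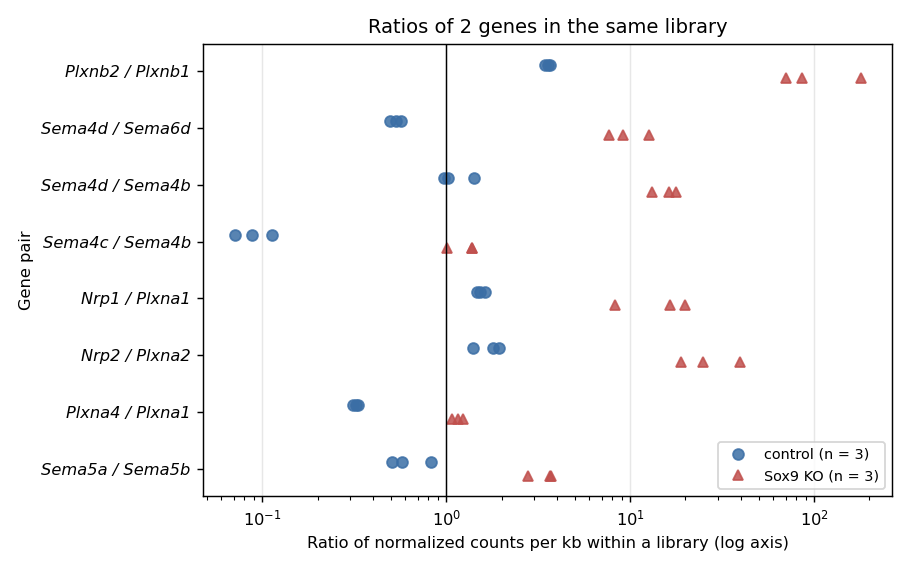
Ratios of normalized counts per kb (log axis) of 8 pairs of genes within each library, with circles for the 3 control and triangles for the 3 Sox9 KO libraries. For Plxnb2 over Plxnb1 the controls lie between 3.43 and 3.65 and the KO libraries between 70.8 and 180.

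Genes that act with the family were read from 3 lists. Of 16 co-receptors and further receptors, 15 were tested, with a median log2 fold change of -0.74. There 6 were called higher (40.0%, against 22.2% of all genes tested) and 7 lower (46.7%, against 28.8%). With equal library totals 4 were called higher and 7 lower, and fewer of all genes were called higher too (2936 against 4090). Ptk7, a receptor-like partner of plexin A in vertebrates, was at 393, 428 and 422 normalized counts in the controls and 18.9, 31.6 and 25.8 in KO, 16.3-fold lower on the means. Nrcam, an adhesion molecule that joins neuropilin complexes, was at 14318, 11409 and 12750 against 848, 1165 and 1492 (-3.49). Erbb2, a kinase that couples to plexin B, was at 311, 294 and 251 against 22.8, 32.8 and 45.6 (-3.09). These 3 partners, picked for the largest changes among those called, were far lower in every KO library. Of all genes tested, 34.7% had every KO library below every control. The most abundant of the list, Tyrobp, an adaptor that works with Trem2 in myeloid cells, was at 7301, 7688 and 8745 against 32522, 28514 and 32235 (1.98).

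Of 34 cytoplasmic effectors, with a median of -0.33, 8 were called higher (23.5%, near the 22.2% of all genes tested) and 16 lower (47.1%, against 28.8%). With equal library totals 6 were called higher and 17 lower. Dpysl5, a member of the collapsin response mediator family, was at 276, 385 and 336 against 14.9, 25.3 and 31.9 (-3.79), and its relative Dpysl4 was at 174, 178 and 172 against 19.9, 20.1 and 22.8 (-3.00). Farp1, a guanine nucleotide exchange factor that binds class A plexins, was at 2753, 2677 and 2623 against 296, 365 and 275 (-3.11). These 3 were picked for the largest changes among the called effectors. Their KO libraries all lay below the controls, as for 34.7% of all genes tested. Rac1, a small GTPase bound by plexins and the most abundant of the list, was at 29076, 32306 and 27686 against 40068, 37011 and 36888, which was not called (0.36, adjusted p = 0.0102) and turned to -0.25 after quantile normalization. Of the 4 growth factors that bind neuropilins, 3 were called lower (75%, against 28.8% of all genes tested). These were Vegfa (-3.37), Pgf (-2.02) and Vegfc (-1.86), and after quantile normalization 1 of the 4 was called lower. Vegfa, a ligand of Nrp1, was at 3756, 3322 and 2974 against 250, 435 and 307.

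The 4 members called higher, and Plxnb2, were set beside the microglia and macrophage markers, and 5 of those called lower beside the astrocyte markers, a choice made after the values were seen. Per 1000 normalized counts of the 10 microglia and macrophage markers, Sema4d was at 24.6, 26.5 and 28.0 in the controls and 18.9, 18.6 and 19.5 in KO, and Sema4c was at 1.01, 1.42 and 1.34 against 0.867, 0.954 and 0.904. Relative to the sum of these markers, then, Sema4d and Sema4c were lower in every KO library. The log2 fold changes of the single markers ran from 1.43 to 2.33. Sema4d (1.44) and Sema4c (1.45) lay near the low end of that range and inside it, and Nrp2 (1.85) lay inside it too. Nrp1 (1.427) lay just under the lowest marker (1.435), and Plxnb2 (0.53) lay well under it. Nrp2 was at 6.67, 11.3 and 10.1 against 8.68, 8.20 and 9.47, and Nrp1 at 34.1, 35.5 and 31.1 against 26.9, 15.4 and 33.4, with groups that overlapped. Plxnb2 was at 70.5, 76.0 and 65.3 against 26.2, 27.7 and 27.3. Per 1000 normalized counts of the 10 astrocyte markers, Plxnb1 was at 8.52, 7.54 and 7.92 against 3.54, 6.06 and 7.16, and Sema5b was at 5.27, 4.45 and 4.12 against 2.496, 3.18 and 2.72. Plxnb1 and Sema5b were thus lower in every KO library relative to the sum of the astrocyte markers too. Sema6d (23.7, 19.96 and 22.6 against 40.3, 42.5 and 52.2) and Plxna1 (6.70, 6.25 and 6.58 against 29.5, 25.9 and 23.3) were higher relative to that sum. Sema3c (1.30, 1.39 and 2.03 against 2.35, 1.57 and 2.68) overlapped. The single astrocyte markers had log2 fold changes from -4.36 to -2.72. That range held Plxnb1 (-4.33), Sema6d (-2.74) and Sema3c (-3.26), and not Sema5b (-4.47) or Plxna1 (-1.75). The part of the marker shifts in the members' changes was not tested.

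Other marker lists moved as well. All 7 oligodendrocyte markers (median -1.57), all 6 oligodendrocyte precursor markers (-2.90), 11 of 12 neuron markers (-2.70) and all 7 olfactory ensheathing markers (-1.43) were called lower. Of all genes tested, 28.8% were called lower and 22.2% higher. Border macrophage markers split into 2 higher (33.3%) and 4 lower (66.7%). Of the endothelial markers 2 were higher (28.6%) and 3 lower (42.9%), and of the mural markers 3 of 6 were lower (50%). Of the fibroblast markers 1 of 5 was lower (20%), a share under that of all genes tested. Some of these counts changed with the scaling. With equal library totals no endothelial marker was called higher, and after quantile normalization 2 mural markers were. Several genes stand in more than 1 list, and the part of these lists in the members' changes was not tested.

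**Figure D5:**
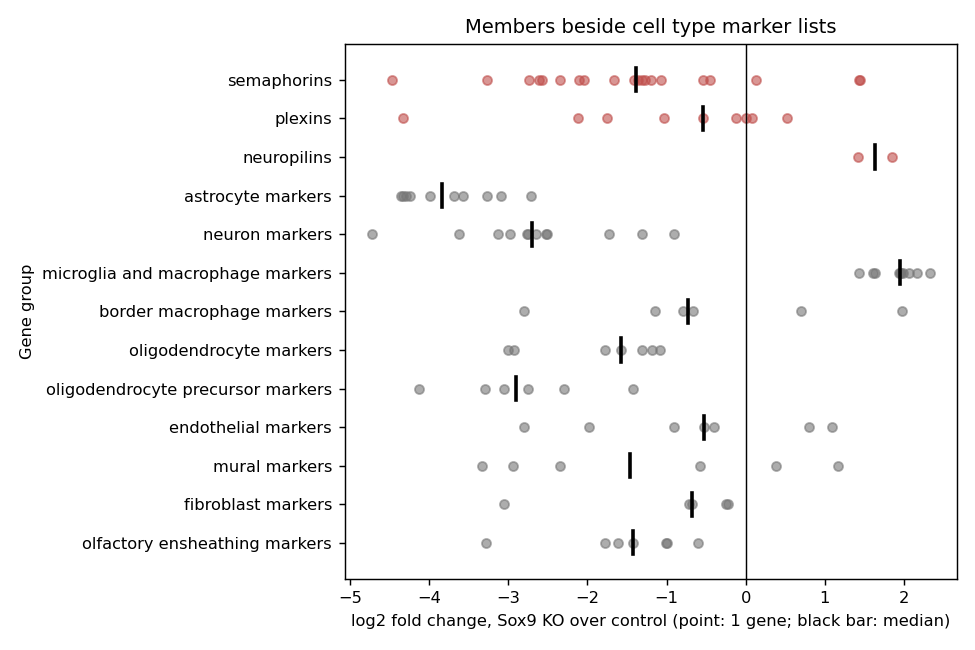
Log2 fold change (Sox9 KO over control) of each semaphorin, plexin and neuropilin (red points) and of each marker in the 10 cell type lists (grey points), with a black bar at the median of each row. The median is -1.39 for the semaphorins, -0.54 for the plexins and 1.64 for the neuropilins, beside -3.84 for astrocyte and 1.96 for microglia and macrophage markers.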

How the data were processed

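Total RNA of sorted cells was made into libraries with the NuGEN Trio system. Per the submitters' processing notes and methods, the authors aligned to mm10 with STAR 2.5.0a, counted reads per gene and normalized with DESeq2 1.20.0. The annotation and strand setting were not given in the sources used here. Nrp1 shares 80 exonic bases with Mir1903, Sema4a 73 with Mir7011 and Plxnc1 115 with Gm48718. These pairs lie on the same strand, so no strand setting would separate their reads. Values deposited as signal are named RPM, but 100% of them were whole multiples, within 0.01 read, of the value of 1 read in each library, so they are read counts divided by a size factor. For KO 1 this value is nearly 1, so all digits were used to find it.

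Genes with a mean of at least 1 (18413 of 24421) were tested, two-sided, by limma 3.58.1 (R 4.3.3; variance trend) after a log2(normalized count + 1) transform, with Benjamini-Hochberg adjustment over all genes tested. Fold changes on that scale understate changes of low genes. Recovered reads were also tested with edgeR 4.0.16 and DESeq2 1.42.0, and other pseudocounts, filters, scalings and left-out libraries were tried. The tests were run on simulated data, 3 against 3, with 200 of 18210 genes changed by a log2 fold change of 1. Of these 200, limma found 69, edgeR 73 and DESeq2 83, with 0 wrong signs and 2, 5 and 9 false calls. A gene not called may thus still differ by such an amount. Far fewer genes were changed there than were called here (4090 higher and 5299 lower), so the simulation does not test these calls. The p-values measure the spread between mice, 1 library each. No column was left unused. Lengths and positions came from GENCODE vM21 (GRCm38, the same build as mm10), and promoters from RefSeq.

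The members, marker lists and partner lists were chosen with earlier results of these data known, the lists from general knowledge. Every member is named. Of the 3 partner lists, the 3 called genes with the largest absolute change and the most abundant gene are named.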

Additional observations from a re-analysis of the deposited data

How the results depend on the processing

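Under the 16 other fits, 4 to 5 members were called higher and 13 to 21 lower. The lowest count, 13, came with quantile normalization, where Plxna3 (-0.58), Sema3b (-0.82), Sema3f (-0.54), Sema6b (-0.56) and Sema6c (-0.43) lost their call. The count of 21 came with libraries scaled to the same total, with or without Rn45s, which added Plxnd1, Sema4f and Sema4g. The median of all genes tested was -0.07 with the deposited scaling, 0.20 after quantile normalization, -0.29 at the same total and -0.37 without Rn45s, and the genes called higher and lower were 4090 and 5299, 5369 and 4100, 2936 and 6191, and 2630 and 6597. edgeR and DESeq2 each gave 4 and 18. Without a filter on low values Sema3b and Sema3f were not called, which left 16 lower. Log2 fold changes that turned sign belonged to genes not called. At the same total and without Rn45s these were Plxna4 (-0.16 and -0.24), Plxnb3 (-0.24 and -0.32) and Sema4a (-0.11 and -0.20). Quantile normalization turned Plxna4 (-0.0079), Plxnb2 (-0.042), Rac1 (-0.25) and Sema3g (0.17), a pseudocount of 0.1 turned Sema3g (0.058), and DESeq2 turned Plxnb3 (-0.017). Leaving out 1 library, the values ran from -0.052 to 0.18 for Plxna4, -0.18 to 0.12 for Plxnb3, -0.30 to 0.045 for Plxnc1, -1.66 to 0.30 for Sema3g and -0.16 to 0.42 for Sema4a. The counts then ran from 4 to 5 higher and from 17 to 20 lower. In 17 members neither call nor direction changed in any of the fits. The cause of these differences was not tested. Deviations from the group mean hardly correlated between control and KO libraries of the same replicate number (-0.05, -0.01 and -0.01). This does not show whether the mice were paired by litter or sort day. A fit with the replicate block called 4 higher and 19 lower, Sema4f being added (adjusted p = 0.0484). Depth limits Sema3b, Sema3f, Sema3g, Sema4f and Sema6c, which had under 100 reads in any library.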
